A study of Mus musculus with 19 samples.

Results

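Genes that mark microglia or encode complement C1q were followed through ribosome profiling of mouse hippocampal slices lacking Fmr1. The genes are C1qa, C1qb, C1qc, Cx3cr1, Selplg, Csf1r, P2ry12, Tmem119, Trem2 and Itgam, chosen by symbol with earlier results of these data known. All 10 were among the 14459 genes of the deposited tables. Footprints (RPF), the mRNA fragments that ribosomes protect from RNase, were compared with cytoplasmic RNA taken from the same lysates. The slices were 400 µm thick and came from male C57BL/6 mice of postnatal day 28 to 35, either Fmr1 KO or wild-type (WT) littermates. The KO line had been backcrossed for over 10 generations, and its labels name no Cre or cell-type promoter. Each biological replicate pooled 8 to 10 slices from 6 to 8 mice, so a library is a pool and not an animal. All mice of both genotypes were perfused with sucrose buffer, and all slices rested at 30 °C for 3 to 4 h and received cycloheximide at 100 µg/ml. The protocol has CA3 cut away to enrich CA1, whereas the source name reads hippocampal-cortical slices. The tables held 3 KO and 4 WT libraries for each of RNA and footprints. Of the 19 labelled samples, 5 were not analysed here.

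Microglia are the resident macrophages of the brain. Csf1r signalling keeps them alive, purinergic and chemokine receptors steer their processes, and they are the main source of C1q in the healthy brain. C1q starts the classical complement cascade, tags synapses and debris for removal, and is built from A, B and C chains encoded by C1qa, C1qb and C1qc. The lipid receptor Trem2 and the integrin chain encoded by Itgam, which with Itgb2 forms complement receptor CR3, take part in the uptake of tagged material. FMRP, the product of Fmr1, binds RNA, and its loss causes fragile X syndrome.

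The C1q genes lie side by side on mouse chromosome 4, from 136880126 to 136898844 in GRCm38, a span of 18.7 kb. Tmem119 and Selplg are also close together, 17.4 kb apart on chromosome 5. The RefSeq promoter table (GRCm38.p6) held 6 of the 10 members: C1qb, C1qc, Cx3cr1, Itgam, P2ry12 and Trem2. The 250 bases before the start are shown for the 4 of these that contain GAGGAA, the core of the motif bound by PU.1, the macrophage transcription factor encoded by Spi1. They are shown for the motif alone. Cx3cr1 and P2ry12, whose windows lack GAGGAA, also had KO over WT log2 fold changes below 0 in RNA and footprints. A part of the motif in the genotype difference was not tested. Each window runs 5′ to 3′ along the gene's strand, and the capitals mark GAGGAA or its reverse complement.
C1qb (chr4:136886201-136886450, - strand): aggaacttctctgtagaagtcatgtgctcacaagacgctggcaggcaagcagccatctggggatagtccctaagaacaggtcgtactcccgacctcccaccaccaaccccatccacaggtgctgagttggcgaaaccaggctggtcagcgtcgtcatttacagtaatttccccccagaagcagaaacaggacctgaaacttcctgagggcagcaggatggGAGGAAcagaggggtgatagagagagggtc
C1qc (chr4:136892915-136893164, - strand): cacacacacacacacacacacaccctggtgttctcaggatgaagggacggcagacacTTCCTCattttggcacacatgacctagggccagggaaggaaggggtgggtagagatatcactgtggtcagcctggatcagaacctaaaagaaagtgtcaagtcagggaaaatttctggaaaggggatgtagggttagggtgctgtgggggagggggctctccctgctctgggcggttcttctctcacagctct
Itgam (chr7:128062390-128062639, + strand): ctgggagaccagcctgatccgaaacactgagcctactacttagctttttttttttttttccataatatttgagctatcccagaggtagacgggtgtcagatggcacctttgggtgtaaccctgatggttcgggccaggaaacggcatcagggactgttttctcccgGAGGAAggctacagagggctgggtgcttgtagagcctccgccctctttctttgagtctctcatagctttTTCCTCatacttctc
Trem2 (chr17:48346151-48346400, + strand): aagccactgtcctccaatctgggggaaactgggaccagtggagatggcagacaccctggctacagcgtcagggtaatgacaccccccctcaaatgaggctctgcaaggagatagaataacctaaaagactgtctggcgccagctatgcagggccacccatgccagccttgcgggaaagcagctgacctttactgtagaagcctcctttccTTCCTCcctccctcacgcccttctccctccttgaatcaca
The match nearest the start was that of Itgam, 15 to 10 bases before it on the opposite strand; Itgam also had a match 84 to 79 bases before it. Those of C1qb (30 to 25 bases before the start) and Trem2 (40 to 35) were close as well, whereas that of C1qc lay 193 to 188 bases before it. GAGGAA on either strand occurred in 23.3% of 32851 RefSeq windows of the same length, so a match is common. The longer GAGGAAGT, which contains GAGGAA, occurred on either strand in 2.44% of the windows and, among the 6 members, in C1qc. No binding was measured, and a match is not a site of binding.

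Fmr1 itself checked the labels. Its footprints were at 4.81, 4.59 and 5.03 TPM (RSEM's transcript abundance, scaled per library and per length) in KO and at 46.3, 44.7, 43.8 and 42.7 TPM in WT libraries, and its RNA at 5.31, 4.07 and 3.90 TPM against 17.3, 16.6, 19.3 and 16.0 TPM. The genotypes were separated in both assays. Footprint libraries summed to 15.57 to 22.71 M estimated counts and RNA libraries to 4.966 to 9.964 M. A member had 129.8 (Tmem119) to 3727 (Csf1r) counts per footprint library, and 91.2 (Tmem119) to 2518 (Csf1r) counts per RNA library, so footprints were the more deeply sequenced assay. The deposited values varied less than counting alone would give. Among genes with mean counts of 20 to 50, the median ratio of variance to mean was 0.158 in KO and 0.174 in WT footprints, and 0.380 and 0.406 in RNA. Along the direction that separates replicates 1 and 2 from 3 and 4 lay 3.84% of the within-group variance in footprints and 2.48% in RNA, against 20.0% if all directions were equal. The labels do not mention an adjustment, and p-values may be too small.

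In WT slices all 10 genes were well measured, with C1q on top. Mean footprint levels, all in TPM, were 120.4 for C1qb, 103 for C1qa, 78.5 for C1qc, 58.1 for Csf1r, 51.6 for P2ry12, 35.0 for Cx3cr1, 24.6 for Trem2 and 18.9 for Selplg, followed by 13.8 for Tmem119 and 13.7 for Itgam. Only the last pair overlapped between neighbours in this order. C1qb footprints stood at percentile 88.7 of all genes and Itgam footprints at percentile 47.3. In RNA the order was C1qb (192 TPM), C1qa (141), C1qc (127), Csf1r (122), Cx3cr1 (58.7), P2ry12 (49.6), Trem2 (39.7), Tmem119 (32.9), Selplg (29.8) and Itgam (19). The library ranges of C1qc and Csf1r, of Cx3cr1 and P2ry12, and of Tmem119 and Selplg overlapped there.

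**Figure D1:**
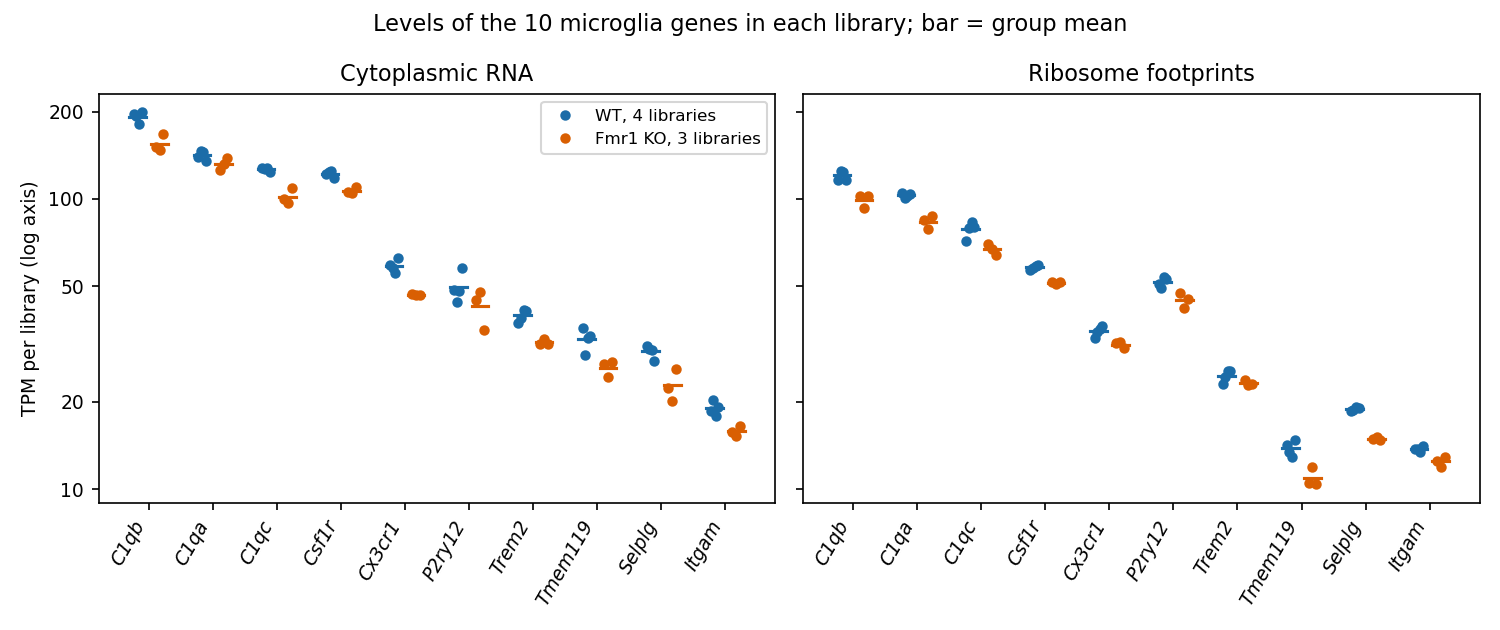
Level of each gene in every library, in TPM on a log axis, for cytoplasmic RNA (left) and footprints (right); points are libraries and bars are group means. All KO points lie below all WT points for 9 of 10 genes in footprints (all but Trem2) and for 8 of 10 in RNA (all but C1qa and P2ry12).

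The question of the comparison is what loss of Fmr1 does to the RNA and the ribosome occupancy of each gene. In footprints 9 of the 10 genes were lower in KO and 0 were higher, with a median log2 fold change of -0.22 (edgeR quasi-likelihood test, adjusted p under 0.05 over all genes). Over all 14438 genes tested, 10.4% were called lower and 8.15% higher, and the median was close to 0. In the same 9 genes the KO libraries all lay below the WT libraries, which held for 15.6% of all genes. In RNA 8 of the 10 genes were lower and 0 higher, with a median of -0.31. Of 13877 genes tested in RNA, 2.77% were lower and 2.11% higher, and 10.3% had all KO libraries below all WT libraries. Lower in both assays were 7 of the 10 members, against 1.41% of all genes tested in both. The members were chosen with earlier results of these data known, so these contrasts with all genes are not an independent test. In slices of mixed cells, fewer microglia and less RNA per microglia cannot be told apart.

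The C1q chains came first in level and were all lower in KO footprints. C1qa, the A chain, had footprints at 84.6, 79.0 and 87.0 TPM in KO and 105, 101, 102 and 104 TPM in WT, 19.2% lower (log2 fold change -0.31 ± 0.04 SE, adjusted p = 9.33e-04). Its KO and WT footprint libraries did not overlap. C1qa RNA was at 126, 132 and 139 TPM in KO and 139, 146, 145 and 135 TPM in WT. These ranges overlapped, and the RNA difference did not pass the test (-0.09 ± 0.06, adjusted p = 0.465). C1qb, the B chain, had footprints at 102, 93.3 and 103 TPM in KO against 116, 125, 124 and 117 TPM in WT (-0.29 ± 0.04, adjusted p = 0.00209). Its RNA was at 151, 147 and 167 TPM in KO against 195, 193, 182 and 199 TPM in WT (-0.30 ± 0.06, adjusted p = 0.0164). C1qb was thus about as far down in RNA as in footprints, with no overlap in either, and KO library 3 was the highest KO library in RNA. C1qc, the C chain, had footprints at 69.9, 67.0 and 64.1 TPM in KO and 71.5, 79.4, 83.3 and 79.8 TPM in WT (-0.24 ± 0.05, adjusted p = 0.00842). Its lowest WT library was just above the highest KO library. C1qc RNA was at 100.1, 96.4 and 109 TPM in KO and 128, 127, 128 and 124 TPM in WT (-0.31 ± 0.06, adjusted p = 0.0164), again without overlap.

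Because the C1q protein needs all of its chains, their proportions were compared within libraries. RNA of C1qa over C1qc was 1.30 ± 0.06 (SD, n = 3) in KO and 1.11 ± 0.03 (SD, n = 4) in WT, with no overlap. The 2-sided exact permutation p was 0.0286, the smallest that 3 against 4 libraries allow, and 0.171 after adjustment over 6 ratios. RNA of C1qa over C1qb was 0.854 ± 0.040 (SD, n = 3) in KO and 0.737 ± 0.053 (SD, n = 4) in WT (exact p = 0.0571, adjusted 0.171). C1qb over C1qc was the same to 3 digits in RNA, 1.52 in each genotype (exact p = 0.8). In footprints the KO and WT ranges of all 3 ratios overlapped, with exact p from 0.429 to 0.6. No ratio passed the threshold after adjustment.

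Receptors for signals from neurons and other cells came next. Csf1r, the receptor for the survival factors Csf1 and Il34, had footprints at 51.6, 50.8 and 51.8 TPM in KO and 56.8, 57.7, 58.7 and 59.1 TPM in WT (-0.18 ± 0.03, adjusted p = 0.00340). Its RNA was at 106, 105 and 109.9 TPM in KO and 122, 124, 125 and 118 TPM in WT (-0.19 ± 0.05, adjusted p = 0.0455). Csf1r had the tightest libraries of the members in KO footprints, and no overlap in either assay. Cx3cr1, the receptor for the neuronal chemokine Cx3cl1, had footprints at 31.8, 32.1 and 30.5 TPM in KO and 33.2, 34.7, 35.5 and 36.5 TPM in WT (-0.16 ± 0.04, adjusted p = 0.0242). Cx3cr1 RNA was at 46.9, 46.5 and 46.6 TPM in KO and 59.2, 58.0, 55.4 and 62.3 TPM in WT (-0.33 ± 0.06, adjusted p = 0.0126). The gap between genotypes was wider in RNA (20.4% lower in KO) than in footprints (10.6% lower). P2ry12, the ADP receptor that draws processes to injury, had footprints at 47.3, 42.2 and 45.2 TPM in KO and 50.8, 49.2, 53.7 and 52.8 TPM in WT (-0.21 ± 0.04, adjusted p = 0.00708). P2ry12 RNA was at 44.8, 47.9 and 35.4 TPM in KO and 48.5, 44.0, 48.2 and 57.6 TPM in WT, with overlap (-0.25 ± 0.10, adjusted p = 0.177). For P2ry12 RNA the difference between means of log2 TPM was 0.002 within replicates 1 and 2 and -0.57 within replicates 3 and 4.

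Genes of uptake and adhesion followed. Trem2 had footprints at 23.7, 22.8 and 23.1 TPM in KO and 23, 24.4, 25.5 and 25.4 TPM in WT, and was the 1 member whose footprints did not pass (-0.10 ± 0.05, adjusted p = 0.348). Trem2 RNA was at 31.6, 33.0 and 31.5 TPM in KO and 37.4, 38.7, 41.5 and 41.2 TPM in WT (-0.31 ± 0.08, adjusted p = 0.0400). The genotypes overlapped in footprints and not in RNA. Itgam had footprints at 12.5, 11.9 and 12.9 TPM in KO and 13.8, 13.7, 13.4 and 14.1 TPM in WT (-0.15 ± 0.04, adjusted p = 0.0302). Its RNA was at 15.8, 15.3 and 16.5 TPM in KO and 18.5, 20.3, 17.9 and 19.2 TPM in WT (-0.25 ± 0.07, adjusted p = 0.0433). Itgam was among the members with small footprint differences, without overlap. Selplg, the P-selectin ligand and a microglia surface marker in brain, had footprints at 14.9, 15.1 and 14.7 TPM in KO and 18.5, 18.8, 19.1 and 19.1 TPM in WT (-0.35 ± 0.04, adjusted p = 6.18e-04). Selplg RNA was at 22.3, 20.0 and 25.9 TPM in KO and 31.2, 30.5, 30.0 and 27.7 TPM in WT (-0.36 ± 0.09, adjusted p = 0.0351). These were the largest log2 fold changes of the 10 in either assay, without overlap. Tmem119, a membrane protein used to tell microglia from other macrophages, had footprints at 10.5, 11.9 and 10.4 TPM in KO and 14.2, 13.4, 12.9 and 14.8 TPM in WT (-0.34 ± 0.07, adjusted p = 0.00798). Its RNA was at 26.9, 24.3 and 27.5 TPM in KO and 36, 29.0, 33.0 and 33.6 TPM in WT (-0.32 ± 0.09, adjusted p = 0.0453), again without overlap.

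How far the calls rest on single libraries differed between the assays. In footprints, leaving out 1 library left 7 to 9 members called lower, beside 1051 to 1303 of all genes. Only Cx3cr1 and Itgam lost their calls: Cx3cr1 without KO 1, KO 3, WT 2 or WT 4, and Itgam without KO 1, KO 2, WT 1, WT 2 or WT 4 (adjusted p 0.0513 to 0.107). In RNA, only Cx3cr1 stayed called without KO 1 or KO 2 (adjusted p of the lost calls 0.0508 to 0.150). Without WT 1 or WT 3 C1qb, C1qc and Cx3cr1 stayed, without WT 2 these and Tmem119, and without WT 4 C1qc, Cx3cr1 and Selplg (lost calls 0.0502 to 0.129). Without KO 3 Trem2 was lost (0.0979) and 7 members stayed. Of all genes, 122 to 520 were lower in RNA with 1 library left out. With replicates 1 and 2 against 3 and 4 as a block, 7 members were lower in footprints (8.05% of all genes) and 3 in RNA, C1qb, C1qc and Cx3cr1 (1.52% of all genes). DESeq2 called 7 members lower in footprints (1140 of 14438 genes) and 5 in RNA (272 of 13877 genes). The log2 fold changes of all 10 members were below 0 in both assays under every alternative fit.

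**Figure D2:**
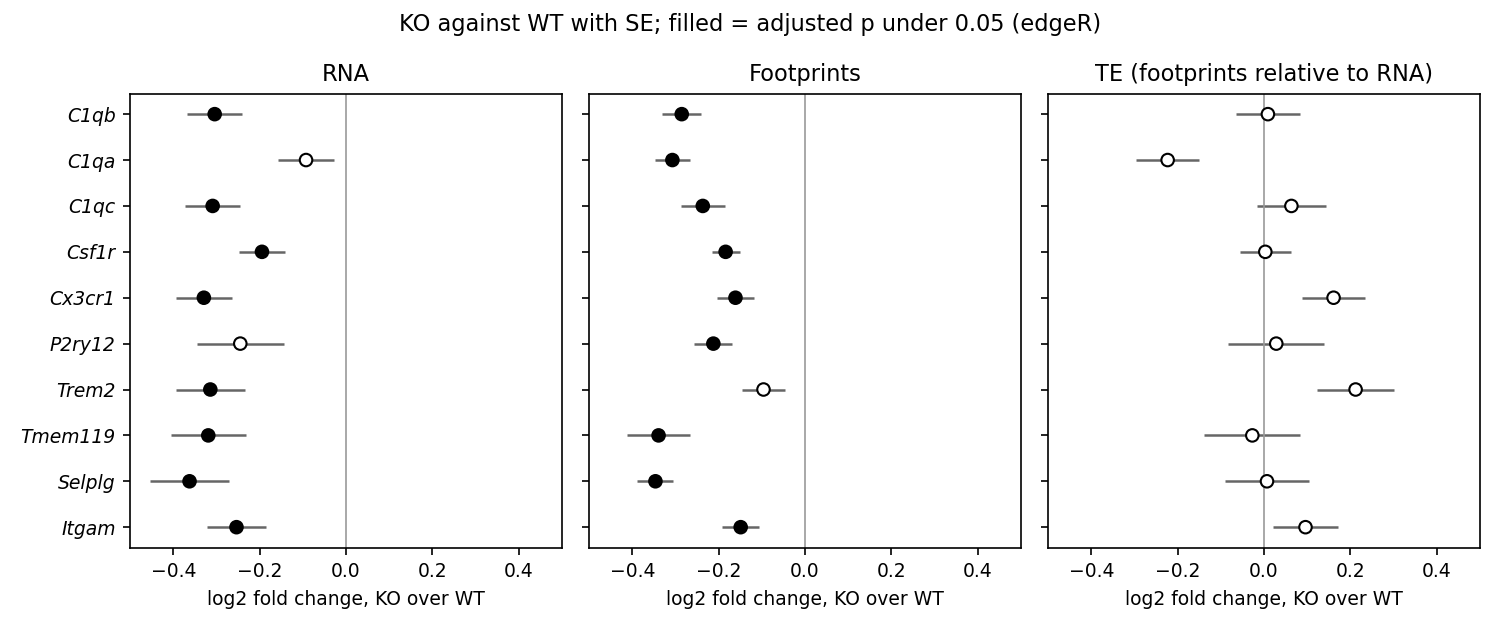
KO over WT log2 fold change of each gene with its standard error, for RNA, footprints and TE (the change of footprints relative to RNA); filled points have an edgeR adjusted p under 0.05. Filled points lie left of 0 for 8 genes in RNA and 9 in footprints, and no point is filled in TE.

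Translational efficiency (TE), the change in footprints beyond that in RNA, was tested by an assay by genotype interaction term. By edgeR, 0 of 10 members passed, with 2 at an unadjusted p under 0.05, and the median over members was 0.02. DESeq2, limma and voom also called 0. Of 14435 genes, 0.0208% were called lower and 0.0139% higher, and 1564 had an unadjusted p under 0.05. The members at an unadjusted p under 0.05 went opposite ways. C1qa had a TE change of -0.22 ± 0.07 (unadjusted p = 0.00548, adjusted 0.207), and Cx3cr1 one of 0.16 ± 0.07 (unadjusted p = 0.0460, adjusted 0.446). For Trem2 the change was 0.21 ± 0.09 (adjusted p = 0.522), and for Itgam it was 0.10 ± 0.08 (adjusted p = 0.721). In the other 6 members it lay between -0.03 and 0.06.

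**Figure D3:**
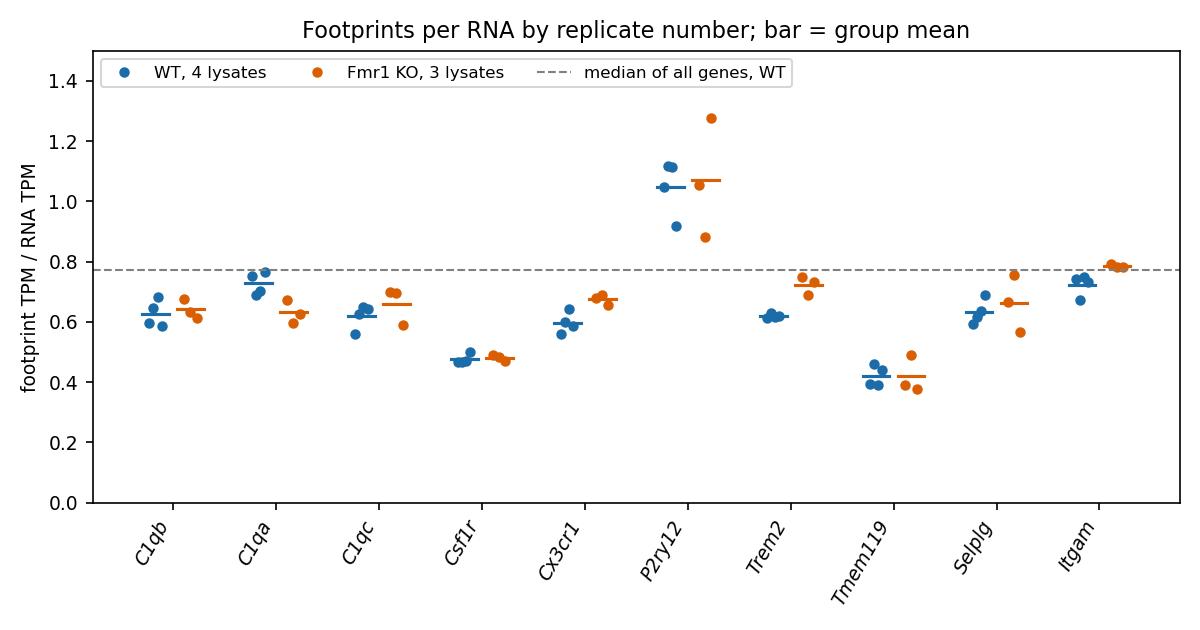
Footprint TPM over RNA TPM of each gene by replicate number. Each point matches the RNA and footprint library of equal number, labelled as a lysate. Bars are group means, and the dashed line is the WT median of all genes (0.771). The matching follows the titles, and deviations of matched libraries from their group means correlated by -0.05 to 0.19. P2ry12 lies above the line and Tmem119 lowest, in both genotypes.

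Footprints per RNA differed more between members than between genotypes. WT means (SD, n = 4) ran from 0.421 ± 0.036 for Tmem119, at percentile 19 of all genes, to 1.05 ± 0.09 for P2ry12, at percentile 69.7. Csf1r stood at 0.476 ± 0.016, and C1qb and C1qc at 0.628 ± 0.045 and 0.619 ± 0.042. For C1qa the ratio was 0.597 to 0.673 in KO and 0.690 to 0.767 in WT, with all KO values lower. Trem2 was the other way round, at 0.690 to 0.749 in KO and 0.614 to 0.629 in WT. Cx3cr1 (0.655 to 0.690 in KO, 0.560 to 0.641 in WT) and Itgam (0.782 to 0.791 and 0.674 to 0.748) were also higher at every KO replicate number. None of these passed the TE test after adjustment. The share of all genes without overlap in this ratio was not counted, so non-overlap here cannot be judged against it.

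The 10 genes varied together over the 7 footprint libraries, which include the genotype difference. Correlation of each gene with the mean of the other members ran from 0.806 (Trem2) to 0.994 (Csf1r). Outside the members, the footprint profiles most like theirs among 12816 genes were those of Dicer1 (r = 0.991), Fut8 (0.990), Cpt1c (0.987), Cyp7b1 (0.987), Pcdhga1 (0.985) and Dpy19l3 (0.985). Likeness to the members includes the same genotype difference. All but Dicer1 (-0.14 ± 0.04, adjusted p = 0.0855) were called lower in KO footprints. Dicer1 encodes the miRNA-processing RNase, Fut8 a fucosyltransferase and Cyp7b1 an oxysterol hydroxylase. Pcdhga1 shares exons with its gene cluster, so its estimate is uncertain.

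Other genes known from microglia did not all follow the members. Of 46 such genes 14 were lower and 2 higher in KO footprints (median -0.09), and 5 lower and 1 higher in RNA (median -0.07). Over all genes, 10.4% were lower and 8.15% higher in footprints, and 2.77% and 2.11% in RNA. The footprint count was 6 by DESeq2 or without KO library 2, and 9 without WT library 3. It was 8 with replicate sets and 7 with the replicate number as a block. The RNA count was 0 with the replicate number as a block, 1 by DESeq2 and 1 to 3 without any 1 library. Lower in footprints were Olfml3 (-0.39 ± 0.05, adjusted p = 6.35e-04), the phagocytic receptor kinase Mertk (-0.39 ± 0.07, adjusted p = 0.00426) and the lectin Siglech (-0.25 ± 0.05, adjusted p = 0.00464). Higher were Coro1a, an actin regulator of leukocytes that neurons also express (0.21 ± 0.04, adjusted p = 0.00500; RNA 0.24 ± 0.06, adjusted p = 0.0218), and Spi1 (0.39 ± 0.08, adjusted p = 0.00592; RNA 0.36 ± 0.11, adjusted p = 0.180). Spi1 was picked after its values were seen.

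All 10 members encode membrane or secreted proteins, and the 46 genes were split by the same feature after their values were seen. Of 27 that encode membrane, lysosomal or secreted proteins, 13 were lower and 0 higher in footprints (median -0.19), and 5 lower and 0 higher in RNA (median -0.14). Of 19 that encode cytosolic or nuclear proteins, 1 was lower (Aif1, -0.22, named after its value was seen) and 2 higher (Coro1a and Spi1), with a median of -0.01 in footprints and 0.06 in RNA. Over the alternative fits the first group had 6 (DESeq2, or without KO library 2) to 15 lower in footprints, and the other 0 to 1. The first group's RNA count of 5 was 0 with the replicate number as a block, 1 by DESeq2 and 1 to 3 without any 1 library. Summed footprint levels of the first group were 666 to 728 TPM in KO and 785 to 793 TPM in WT, and its summed RNA 784 to 822 and 862 to 928 TPM. The summed footprints of the cytosolic and nuclear group were 277 to 294 TPM in KO and 254 to 280.2 TPM in WT, and so overlapped. Its summed RNA was 414 to 427 TPM in KO and 361 to 389 TPM in WT, with every KO library above every WT library. Coro1a alone made up a mean of 220 TPM of this sum in KO and 186 TPM in WT. Of the 19 genes, 1 was called higher in RNA, and 8 had log2 fold changes below 0. The difference between the groups was not tested.

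**Figure D4:**
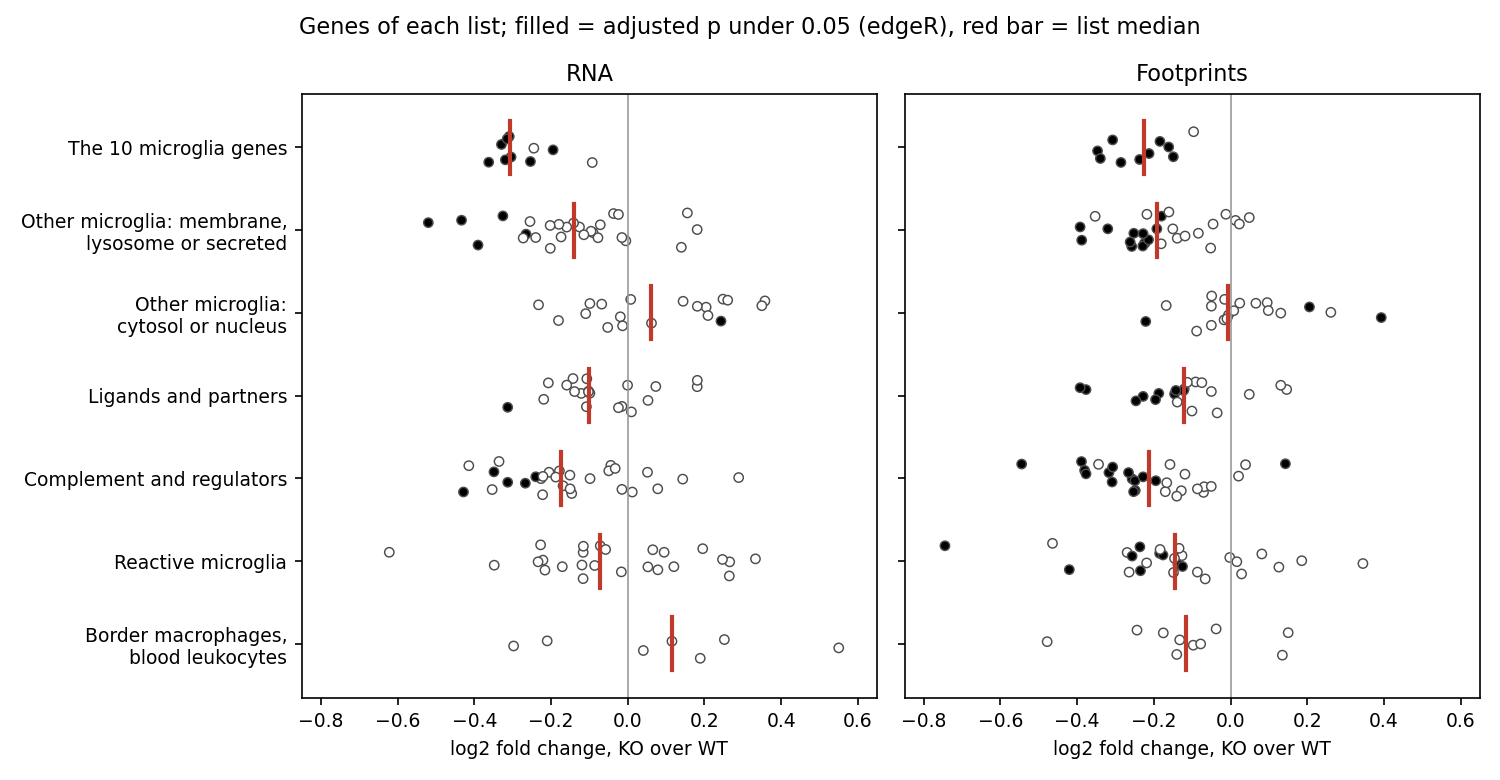
KO over WT log2 fold change of every tested gene of 7 lists in RNA (left) and footprints (right); filled points have an edgeR adjusted p under 0.05, and red bars are list medians. The footprint median is -0.22 for the 10 members, -0.19 for other microglia genes of the membrane, lysosome or secreted proteins, and -0.01 for those of the cytosol or nucleus.

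Ligands and partners of the members were measured beside them. The lists share genes, so their counts are not independent. Mertk and Tyrobp, for example, were also counted among the other microglia genes, and Clu among the complement genes. Serping1 is in the complement and fibroblast lists, and Pdgfra in the fibroblast and oligodendrocyte lists. Of 20 genes 9 were lower and 0 higher in footprints (median -0.12), and 1 lower and 0 higher in RNA. The footprint count was 4 without KO library 1, and 5 without KO 3, WT 2 or WT 4 or with replicate sets as a block. The gene lower in both was Clu, the astrocyte apolipoprotein clusterin and a Trem2 ligand (-0.38 ± 0.05, adjusted p = 7.06e-04; RNA -0.31 ± 0.05, adjusted p = 0.00641). Pros1, a ligand of Mertk (-0.25 ± 0.05, adjusted p = 0.00441), and the neuronal inhibitor of microglia Cd200 (-0.14 ± 0.04, adjusted p = 0.0166) were lower in footprints. Among direct ligands, picked for naming by role after their values were seen, Il34 was lower in footprints (-0.15 ± 0.05, adjusted p = 0.0465). Csf1 had -0.12 ± 0.05 (adjusted p = 0.0949) and Cx3cl1 -0.09 ± 0.05 (adjusted p = 0.261). Tyrobp, the signalling adaptor of Trem2, had footprints at -0.14 ± 0.07 (adjusted p = 0.266) and RNA at 0.18 ± 0.09 (adjusted p = 0.359).

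In the complement cascade downstream of C1q and among its regulators, 14 of the 28 genes present were lower and 1 higher in footprints (median -0.21), and 5 lower and 0 higher in RNA (median -0.17). The RNA count was 3 without KO 1, WT 1 or WT 2, 2 without KO 2 and 9 in a joint fit. C4b, which C1 cleaves in the classical pathway, was lower in both assays (footprints -0.54 ± 0.05, adjusted p = 1.78e-04; RNA -0.43 ± 0.08, adjusted p = 0.00957). Serping1, the C1 inhibitor, was lower in footprints (-0.39 ± 0.05, adjusted p = 0.00108; RNA -0.35 ± 0.10, adjusted p = 0.0823). Also lower was Csmd3 (-0.38 ± 0.04, adjusted p = 3.46e-04), of a family of neuronal membrane proteins with complement-control domains. C3, the cascade's central component, had -0.07 ± 0.06 in footprints (adjusted p = 0.759) and -0.04 ± 0.12 in RNA (0.944). The 1 gene higher, C1qbp (0.14 ± 0.04, adjusted p = 0.0319), encodes a mostly mitochondrial protein. That call was lost with the replicate number or replicate sets as a block, and without KO 1, KO 2 or WT 2. The count of genes lower in footprints was 12 to 16 over the alternative fits. C1qbp and C3 were picked after their values were seen. Genes outside the trio whose proteins carry a C1q domain were lower in 4 of 19 cases and higher in 0 (median -0.08). They included C1ql2 (-0.33 ± 0.04, adjusted p = 9.33e-04) and Cbln4 (-0.51 ± 0.10, adjusted p = 0.00463), which encode synaptic organisers of neurons.

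Genes that rise in reactive or disease-associated microglia were lower in 9 of 27 cases and higher in 0 in footprints (median -0.15), and 0 of 25 passed in RNA. B2m, the light chain of class I molecules, had -0.23 ± 0.03 (adjusted p = 0.00152), the chemokine Ccl12 -0.74 ± 0.11 (adjusted p = 0.00195), the protease Ctsb -0.26 ± 0.04 (adjusted p = 0.00224) and the lipase Lpl -0.24 ± 0.04 (adjusted p = 0.00398).

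Markers of other cells were measured in the same libraries. Of 21 markers of border macrophages and blood leukocytes, 10 were in the tables. In footprints 0 of 10 passed (median -0.11, 8 below 0), and in RNA 0 of 7 tested (median 0.12). By limma with either pseudocount 2 were lower and 0 higher in footprints. These markers were low, and 4 in footprints and 2 in RNA had a mean count of at least 50. The summed footprints of the 10 were 27.6 to 28.0 TPM in KO and 26.6 to 30.6 TPM in WT. Fibroblast and meningeal markers were lower in footprints in 12 of 16 cases and higher in 0 (median -0.33), with sums of 448 to 458 TPM in KO and 553 to 627 TPM in WT. Endothelial and mural footprints were lower in 8 of 25 and higher in 0 (median -0.15; sums 345 to 375 TPM in KO and 372 to 432 TPM in WT), and lower in 3 without KO 2, KO 3 or WT 3 and in 5 without WT 1. Red blood cell transcripts Hba-a2 and Hbb-bs were lower, by log2 fold changes of -1.60 ± 0.12 and -1.12 ± 0.16 (adjusted p = 7.77e-05 and 0.00340). Their RNA fell too (-1.57 ± 0.24 and -1.47 ± 0.19, adjusted p = 0.00442 and 0.00743). In footprints, oligodendrocyte genes were lower in 12 of 24 and higher in 1 (median -0.15), astrocyte genes lower in 5 and higher in 3 of 20 (median -0.08), and pyramidal neuron genes lower in 3 and higher in 3 of 19 (median 0.02). In RNA fewer genes passed: 2 of 16 fibroblast and meningeal genes were lower (median -0.18; 5 without KO 3), 1 of 25 endothelial and mural (median -0.06; 0 without KO 1 or KO 2), 3 of 24 oligodendrocyte (median -0.08; 1 without KO 1 or KO 2), 2 of 20 astrocyte and 1 of 19 pyramidal. Higher in RNA were 1 oligodendrocyte and 1 pyramidal gene. Over all genes, too, fewer passed in RNA (2.77% lower, 2.11% higher) than in footprints (10.4% lower, 8.15% higher). The smaller RNA counts are therefore not particular to these cell types. The summed fibroblast and meningeal RNA was 234 to 271 TPM in KO and 288 to 319.8 TPM in WT. Immediate-early genes, which slicing can raise, were lower in 2 of 23 in footprints and 6 of 23 in RNA, and higher in 0. The footprint count was 1 without KO 1, KO 2, WT 1, WT 2 or WT 3 and 3 without WT 4, and 1 gene was higher without KO 2 or WT 2. The RNA count was 1 without KO 2, 3 without WT 1 or WT 4, and 11 without KO 3. The summed footprints of the 10 members were 426 to 449 TPM in KO and 503 to 528 TPM in WT, and their RNA 668 to 708 and 806 to 818 TPM. The part of the vascular, meningeal and blood markers in the members' difference was not tested.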

How the data were processed

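RNA and footprint libraries were grouped by genotype and assay from the sample titles. Per the submitters' processing notes, the tools were cutadapt 1.7.1, Trimmomatic 0.32, Bowtie2 2.1.0, TopHat2 2.0.9, SAMtools 0.0.19, bedtools and RSEM 1.2.11, with build mm10. The values deposited by the authors are RSEM estimated counts per gene, none of them at 0. The authors also deposited TPM, whose totals were 1008320 to 1014090 and whose lowest value was 0.880, so a floor near 1 was present that the sources used here do not explain. Folds of genes near it are uncertain.

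Estimated counts were rounded and tested per assay with edgeR 4.0.16 (R 4.3.3) by the quasi-likelihood test, after filterByExpr with a minimum count of 10 and TMM scaling. TE was the assay by genotype interaction over all 14 libraries. P-values were adjusted by Benjamini-Hochberg over all genes tested, at 0.05, and SE is the log2 fold change over the root of F. Correlations used log2 CPM (prior count 2, mean count of at least 50). Alternatives were DESeq2 1.42.0, limma 3.58.1 on log2(TPM + 1) or log2(TPM + 0.1), RLE scaling, other count filters, blocks, a length trend removed, voom with the lysate as random block, a joint fit and leaving out each library. The block of replicate sets was added after seeing the data. Named were the members, Fmr1, up to 4 genes of each list with the smallest footprint p, and the 6 genes most like the members; other genes are marked where named. The members and all lists were chosen with earlier results of these data known. The scripts were tested on simulated data. The 5 samples without a column were left out.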

Additional observations from a re-analysis of the deposited data

Results flagged for a closer look

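The KO effect on Fmr1, which is the targeted gene and no member, differed between the assays: the log2 fold change in footprints minus that in RNA was -1.21 (edgeR interaction test, adjusted p = 0.00119). Among the 22 WT groups of 4 libraries checked for a library far from the rest (each member and Fmr1 in each assay), 0 were found, where chance would flag about 1 in 20.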

How the results depend on the processing

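No called result changed direction under any alternative run. The number of members lower in KO footprints (9) went to 6 to 9, and 0 members passed in TE in every alternative. C1qa, C1qb, Csf1r, P2ry12, Selplg and Tmem119 stayed called in footprints in all 17 alternatives. The count in RNA (8) was less stable: 5 by DESeq2 and by limma with either pseudocount, 3 with replicate sets as a block and 1 to 7 without 1 library. Same-numbered KO and WT libraries did not deviate together (correlations -0.44 to 0.01 over both assays). The deposited values varied less than counting alone would give, so these correlations cannot decide whether the numbers pair samples. With the replicate number as a block 6 members were lower in footprints and 1 (C1qc) in RNA. Over all genes, that block gave 429 higher and 875 lower in footprints (1177 and 1500 without it) and 73 and 131 in RNA (293 and 385). Replicate sets as a block gave 151 and 211 in RNA, and a joint fit over all libraries 576 higher. Leaving out 1 library gave 719 to 1086 higher and 1051 to 1303 lower in footprints, 94 to 352 and 122 to 520 in RNA, and 1 to 74 and 1 to 22 in TE. TE calls over all genes (2 higher, 3 lower) were 51 and 38 by DESeq2, 39 and 31 by limma with pseudocount 1, 40 and 30 with 0.1, 101 and 96 by voom, 13 and 9 with the length trend removed, and 8 higher at a mean count of at least 50. The causes were not tested. RNA was sequenced less deeply than footprints, and Tmem119, Selplg and Itgam had the lowest levels in TPM. In counts the order differed: per RNA library Itgam had 246 to 448 and Trem2 93.1 to 160.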
